A study of Mus musculus with 8 samples.

Results

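The liver-enriched transcription factors examined here were 8 protein-coding mouse genes, Onecut1, Onecut2, Cebpa, Cebpb, Prox1, Gata4, Gata6 and Creb3l3, taken by gene name from GENCODE M21 (mm10), out of 21938 protein-coding genes in that annotation. Every H3K27-me3 region within 50 kb of a protein-coding start site of these genes, or over their bodies, was collected from the AAV-Cre and the AAV-GFP region lists. The genes were chosen by name, and all 8 were found, so none was dropped for a low or missing value.

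The study examined where H3K27-me3 lies in liver after JMJD3 (gene Kdm6b) is downregulated in hepatocytes. Chromatin of male JMJD3-floxed mice of strain C57BL/6 was immunoprecipitated with an H3K27-me3 antibody (Ab6002) and sequenced. All mice carried the floxed Jmjd3 allele, were injected at 8 weeks of age with an AAV and were fasted for 16 h when livers were taken 12 weeks later. In the AAV-Cre group the virus was AAV-TBG-Cre, in which a promoter active in hepatocytes drives Cre. Deletion of Jmjd3 is thus aimed at hepatocytes and not at the other cells of the liver. The paper calls the outcome a downregulation of JMJD3, seen by immunoblot, and the region lists do not measure it. In the AAV-GFP group the virus carried GFP. Each group had 2 ChIP libraries and 2 input libraries, 8 in all, and the study's methods give 2 mice per group. The labels call the tissue primary liver cells, whereas the protocol describes minced liver, which also holds cholangiocytes, stellate, endothelial and immune cells.

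Each group was deposited as 1 pooled list of enriched regions, 59267 in AAV-Cre and 34586 in AAV-GFP, kept by the authors when they overlapped between replicates. The lists hold no value per library and no read number, so the sequencing depth is unknown, no value below has a replicate error, and no difference between the groups could be tested. A gene was called marked when at least 1 bp of a region lay in its window. Fold enrichment over input, −log10 p and width describe a region within its own list, and the folds of the 2 lists were not compared. The shortest region was 300 bp in AAV-Cre and 120 bp in AAV-GFP, and median widths were 753 and 231 bp. The lists thus differ in the widths they hold, for a reason that was not tested. A region present in only 1 list is not by itself a difference in H3K27-me3 level. In chromatin of whole tissue, a mark in a few cells and a weak mark in many cells also cannot be told apart.

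H3K27-me3 is the histone H3 lysine 27 trimethyl mark that the EZH2 subunit of Polycomb repressive complex PRC2 writes and that the demethylases JMJD3 and UTX remove, and it is found over silent developmental genes, often in wide domains rich in CpG dinucleotides. The genes examined here encode sequence-specific transcription factors linked to the hepatocyte program. Onecut1 (HNF6) and Onecut2 are cut-homeodomain proteins of liver bud and bile duct development, and Cebpa and Cebpb are basic leucine zipper proteins of hepatic metabolism and the acute phase response. Prox1 is a homeodomain protein needed for hepatoblast migration, Gata4 and Gata6 are zinc-finger proteins of foregut endoderm and heart that also act in endothelial and stellate cells, and Creb3l3 (CREBH) is a membrane-bound leucine zipper protein of the endoplasmic reticulum that is cleaved on fasting and activates lipid genes together with PPARα.

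The sequences just upstream of the start sites are shown first. Most of those shown were rich in CpG, and none lay within a region of either list. Of all protein-coding genes, 23.9% had an AAV-Cre region within 1 kb of a start site and 16.6% an AAV-GFP region. An absence is therefore common, and the share among CpG-rich promoters was not tested. The sequences are the 250 bases before the RefSeq start sites (GRCm38.p6, equal to mm10), 5′ to 3′ on the gene's strand, with CpG dinucleotides in capitals. Promoters of the other 3 genes are not shown.
Onecut1 (chr9:74861671-74861920, plus strand): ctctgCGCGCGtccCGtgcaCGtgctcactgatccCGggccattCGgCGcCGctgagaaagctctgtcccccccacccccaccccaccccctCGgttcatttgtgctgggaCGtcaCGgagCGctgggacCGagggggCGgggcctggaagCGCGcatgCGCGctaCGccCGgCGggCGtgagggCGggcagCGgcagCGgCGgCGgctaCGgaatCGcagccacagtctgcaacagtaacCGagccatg
Cebpa (chr7:35119043-35119292, plus strand): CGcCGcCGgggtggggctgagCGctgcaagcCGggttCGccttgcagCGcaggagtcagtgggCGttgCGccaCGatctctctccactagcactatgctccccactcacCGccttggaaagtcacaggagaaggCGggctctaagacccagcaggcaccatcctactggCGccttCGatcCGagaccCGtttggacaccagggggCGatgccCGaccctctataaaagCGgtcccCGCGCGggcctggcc
Cebpb (chr2:167688665-167688914, plus strand): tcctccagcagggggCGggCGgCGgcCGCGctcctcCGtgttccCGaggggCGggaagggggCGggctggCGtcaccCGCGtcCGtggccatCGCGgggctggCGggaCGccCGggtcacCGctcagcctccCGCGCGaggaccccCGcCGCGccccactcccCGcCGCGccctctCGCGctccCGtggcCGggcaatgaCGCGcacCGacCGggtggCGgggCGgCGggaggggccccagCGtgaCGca
Prox1 (chr1:190170828-190171077, minus strand): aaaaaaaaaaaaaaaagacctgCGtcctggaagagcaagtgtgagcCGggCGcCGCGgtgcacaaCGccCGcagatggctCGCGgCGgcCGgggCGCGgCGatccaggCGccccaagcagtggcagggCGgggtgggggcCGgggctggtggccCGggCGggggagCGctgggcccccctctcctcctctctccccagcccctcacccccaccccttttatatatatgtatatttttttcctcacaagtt
Creb3l3 (chr10:81098873-81099122, minus strand): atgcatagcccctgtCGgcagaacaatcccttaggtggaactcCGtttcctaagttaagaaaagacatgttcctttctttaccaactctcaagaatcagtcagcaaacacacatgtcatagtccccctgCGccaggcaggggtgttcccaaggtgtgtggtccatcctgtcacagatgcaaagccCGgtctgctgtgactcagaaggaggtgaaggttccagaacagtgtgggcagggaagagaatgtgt

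With the 50 bases after the start added, the 300-base promoter of Cebpb held 50 CpG, and 0.855% of 32851 RefSeq promoters held as many. That of Onecut1 held 38 CpG (4.95% of promoters held as many), that of Cebpa 29 (12.9%) and that of Prox1 25 (18.4%). The promoter of Creb3l3 held 7 CpG, equal to the median of all promoters, and 52.1% held as many. The motif counted was CG, which reads the same on both strands. Thus 4 of the 5 promoters lay in the upper part of the distribution, and only that of Creb3l3 was at its centre.

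**Figure D1:**
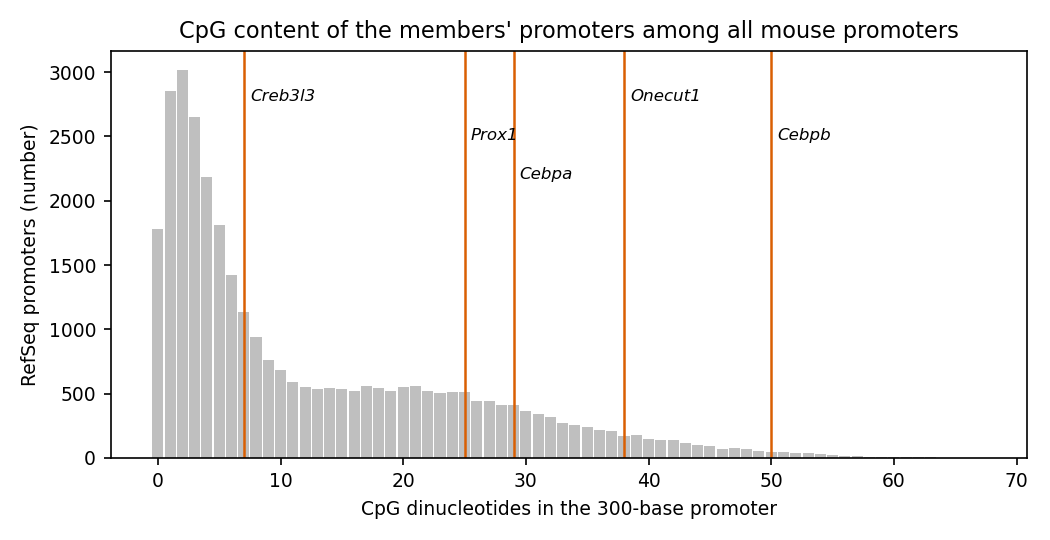
The horizontal axis gives the number of CpG dinucleotides in a 300-base promoter and the vertical axis the number of RefSeq promoters with that number (grey bars), and each vertical line marks a member. Onecut1 at 38 and Cebpb at 50 lie far to the right of the median of 7, where Creb3l3 lies.

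The second set of sequences shows the chromatin that did carry H3K27-me3, as 300 bases centred on the summit of the region with the highest −log10 p at Onecut1 and at Gata4 in AAV-Cre. The Gata4 window was added after its values had been seen. The Onecut1 window lies in an exon of the lincRNA Gm28182, and the Gata4 window lies in an intron of the longer Gata4 transcripts and is printed on the gene's minus strand, both in mm10 with CpG in capitals.
Onecut1 summit (chr9:74854164-74854463, plus strand): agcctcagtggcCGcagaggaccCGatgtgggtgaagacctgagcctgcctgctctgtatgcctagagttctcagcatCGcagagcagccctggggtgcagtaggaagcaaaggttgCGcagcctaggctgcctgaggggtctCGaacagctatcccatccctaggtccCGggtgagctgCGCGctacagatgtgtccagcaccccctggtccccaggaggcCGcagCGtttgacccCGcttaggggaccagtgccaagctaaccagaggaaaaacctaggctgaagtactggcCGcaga
Gata4 summit (chr14:63268545-63268844, minus strand): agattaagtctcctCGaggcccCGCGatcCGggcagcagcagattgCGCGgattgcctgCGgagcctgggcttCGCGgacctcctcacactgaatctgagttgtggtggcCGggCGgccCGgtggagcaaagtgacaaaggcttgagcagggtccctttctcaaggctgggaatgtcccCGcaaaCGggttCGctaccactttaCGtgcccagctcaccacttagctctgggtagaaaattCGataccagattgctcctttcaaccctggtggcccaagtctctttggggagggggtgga
The Onecut1 window held 12 CpG and the Gata4 window 17, beside a median of 4 over the 59267 AAV-Cre summits. As many CpG as in the Onecut1 window were found at 11% of those summits, and as many as in the Gata4 window at 7%.

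H3K27-me3 regions lay at 4 of the 8 genes in AAV-Cre, namely Onecut1, Onecut2, Cebpb and Gata4, and at Gata4 alone in AAV-GFP. Cebpa, Prox1, Gata6 and Creb3l3 had no region in either list. In AAV-Cre the 4 marked genes were 50% of the members (Wilson 95% interval 21.5 to 78.5%), where 62.2% of all protein-coding genes were marked. In AAV-GFP the 1 marked gene was 12.5% (2.24 to 47.1%), where 47.2% of all genes were marked. AAV-Cre alone held regions at Onecut1, Onecut2 and Cebpb, 3 of the 8 or 37.5% (13.7 to 69.4%), beside 17.1% of all genes, a value inside that interval. With AAV-Cre reduced to its 34586 strongest regions, the number in AAV-GFP, Onecut2 and Cebpb lost their regions, which left 2 members marked in AAV-Cre beside 56.2% of all genes, and Onecut1 as the 1 member marked there alone beside 12.1%. AAV-GFP alone held regions at 0 of the 8 (upper bound 32.4%), beside 2.1% of all genes. These intervals cover the number of genes counted and not the variation between mice.

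The 8 genes together held 17 AAV-Cre regions covering 45.3 kb and 19 AAV-GFP regions covering 19.8 kb. The AAV-Cre regions were 341 to 17243 bp wide with a median of 949 bp, and the AAV-GFP regions 163 to 3061 bp with a median of 649 bp, and both medians were above those of the whole lists. Of the AAV-Cre regions 3, or 17.6% (6.19 to 41%), overlapped an AAV-GFP region, and 24.2% of all AAV-Cre regions did. All 19 AAV-GFP regions overlapped an AAV-Cre region (100%, lower bound 83.2%), and 86.4% of all AAV-GFP regions did. All of the shared regions and all AAV-GFP regions belonged to Gata4. Per gene, the median covered length was 0.23 kb in AAV-Cre and 0 in AAV-GFP, and over all protein-coding genes it was 1.57 kb and 0.

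**Figure D2:**
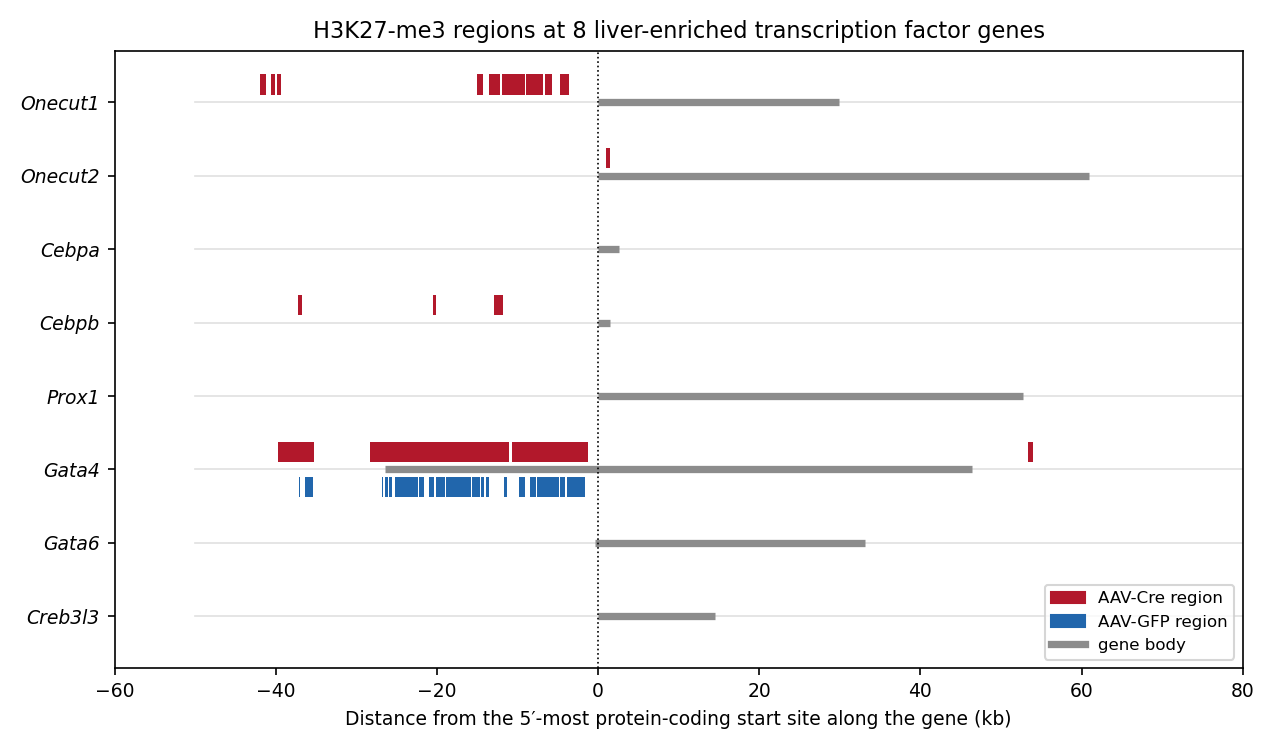
Each row is a gene, drawn along its own strand, and the horizontal axis is the distance in kb from its 5′-most protein-coding start site (dotted line), with AAV-Cre regions in red above the grey gene body and AAV-GFP regions in blue below it. Regions at Onecut1 and Cebpb lie upstream in AAV-Cre alone, Gata4 has wide AAV-Cre regions with narrower AAV-GFP regions beneath them, and 4 rows are empty; the Gata4 body starts left of 0 because longer transcripts of the gene begin there.

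Onecut1 (ENSMUSG00000043013.10, chr9:74861921-74891781, plus strand) carried 9 H3K27-me3 regions in AAV-Cre and 0 in AAV-GFP. They covered 10964 bp, 11% of the 100-kb window, and all 9 lay upstream, 3626 to 41203 bp before the start site, with none over the 29.9-kb body. The nearest AAV-GFP region lay 207577 bp away, was 161 bp wide and lay 1530 bp from the start of Myo5a. Onecut1 thus stood without an AAV-GFP region for 1048 kb around its start site, and 16.7% of protein-coding genes had a stretch at least as long.

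The regions upstream of Onecut1 formed 2 groups. The nearer group held 6 regions between chr9:74846847 and chr9:74858295, which covered 79.1% of 11.4 kb with gaps of 104 to 935 bp. The region closest to the gene (chr9:74857189-74858295, 1107 bp) had a fold of 2.6 and a −log10 p of 3.98, below the AAV-Cre list medians of 2.9 and 4.75. The widest region (chr9:74850035-74852888, 2854 bp) had a fold of 4.56 and a −log10 p of 11.6. The strongest region (chr9:74852993-74855093, 2101 bp), which lay 6828 bp before the start site, had a fold of 8 and a −log10 p of 29.9 (q = 1.78e-27, as the peak caller gave it). Strength therefore did not rise toward the gene but peaked in the middle of the group.

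By −log10 p the strongest Onecut1 region ranked 2135 of all 59267 AAV-Cre regions (top 3.6%). Among the 44906 AAV-Cre regions that overlapped no AAV-GFP region it ranked 2, so 1 such region was stronger. That rank is within a set selected for having no AAV-GFP region, for a gene chosen with earlier results known, and supports nothing further. Of its neighbours in the nearer group, the regions at chr9:74846847-74847612 (766 bp), chr9:74848429-74849709 (1281 bp) and chr9:74855305-74856253 (949 bp) had −log10 p of 11.1, 14.1 and 5.38. The second of them was the richest in CpG of all 9, with 7.65 CpG per 100 bases and 58.9% GC, where the AAV-Cre medians were 1.32 and 50%. The farther group held 3 weak regions within 2.69 kb at chr9:74819931-74822615, 540 to 788 bp wide with folds of 2.44 to 2.9 and −log10 p of 3.48 to 4.5. All 9 regions had a q-value of 0.05 or lower and 7 had 0.01 or lower. Passing these values did not set them apart, because most of the AAV-Cre list did so. The regions at Cebpb ranked 36729 and 51253 of 59267 still had q-values of 0.0086 and 0.023.

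The nearer group lay over noncoding transcripts and not over another coding gene. It overlapped Gm16551 (chr9:74847983-74860134, plus strand), the lincRNA Gm20649 (chr9:74848463-74891476, plus strand), which runs on over the Onecut1 body, and the lincRNA Gm28182 (chr9:74852909-74855385, minus strand). Exons of these transcripts were overlapped by 4 of the 6 regions. The nearest other protein-coding start site was that of Fam214a, 94669 bp from the closest region, so Onecut1 was the closest coding gene to all 9.

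As many AAV-Cre bases as at Onecut1 were found at 4041 protein-coding genes (18.4%). Among the 11584 genes with no AAV-GFP region in the window, 45 including Onecut1 itself (0.388%) had as many. AAV-Cre regions were present at 3745 of those genes with a median of 1.43 kb. Within 15 kb of start sites it was 18 of 15808 genes (0.114%), and the median was 1.15 kb at the 3250 that had any. This rank describes 2 pooled lists among genes selected for having no AAV-GFP region, for a gene chosen with earlier results of these data known, and supports nothing further.

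Covered length was also compared in 5-kb bins from 50 kb before to 50 kb after the 5′ end, 20 bins in each list. The comparison took in 13070 of the 21938 protein-coding genes, all on other chromosomes, and the rest were not ranked. Among those compared, the profiles most like that of Onecut1 were those of Ifngr2, Cpt1a and Spag8, each with a Pearson r of 0.95 over the 40 values. They held 8.95, 1.15 and 9.79 kb in AAV-Cre and 0.572, 0 and 0.305 kb in AAV-GFP, so of the 3 only Cpt1a, which encodes the carnitine palmitoyltransferase that admits fatty acids to mitochondria, was like Onecut1 in having no AAV-GFP region. The bins share their libraries and are mostly 0, and no p was computed.

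**Figure D3:**
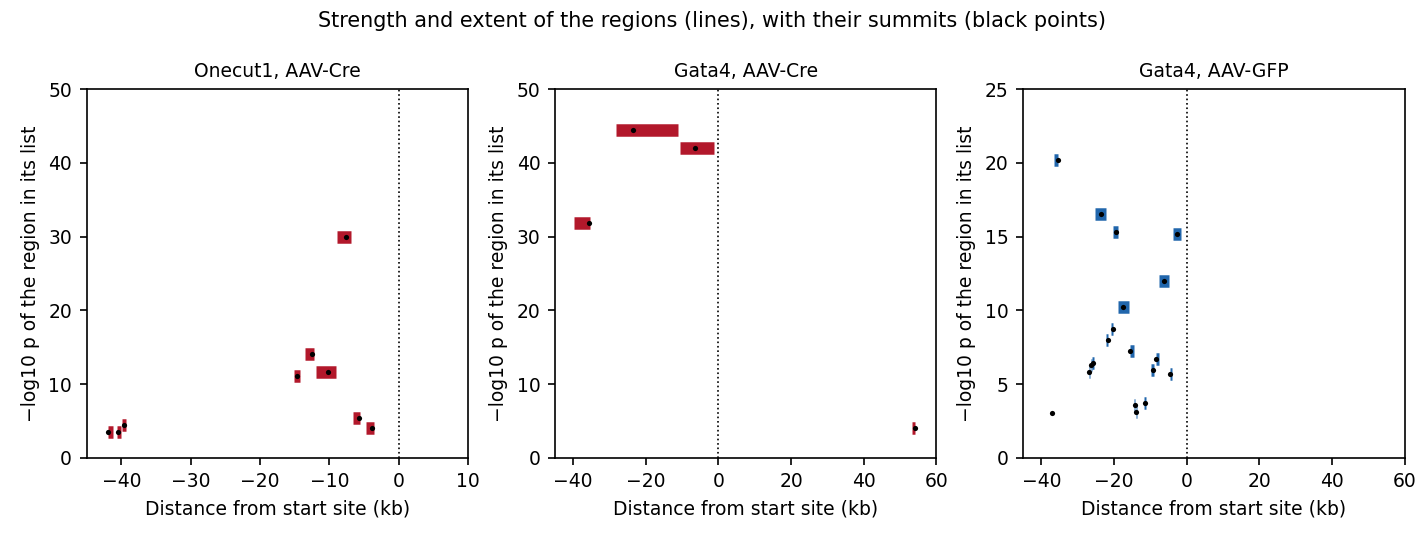
In each panel the horizontal axis is the distance in kb from the 5′-most protein-coding start site (dotted line), the vertical axis is the −log10 p of a region within its own list, bars span the regions and black points mark their summits; the AAV-GFP panel has its own vertical scale. At Onecut1 the strongest region reaches 29.9 in the middle of the nearer group, and at Gata4 3 AAV-Cre regions lie between 31.9 and 44.5 and the 19 AAV-GFP regions between 3.03 and 20.2.

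Onecut2 (ENSMUSG00000045991.19, chr18:64340020-64400987, plus strand), the paralogue that overlaps with Onecut1 in liver development, carried 1 AAV-Cre region and 0 AAV-GFP regions. The region (chr18:64341011-64341470) was 460 bp wide and began 991 bp after the start site, and all 460 bp were coding sequence of the first exon. Its fold of 2.56, −log10 p of 3.79 and q-value of 0.0116 were near the weak end of the range at Onecut1. It held 63% GC and 6.3 CpG per 100 bases, beside 7.65 in the densest Onecut1 region. The region was not among the 34586 strongest of the AAV-Cre list. The nearest AAV-GFP region lay 267144 bp away, and 13.4% of genes had a stretch without AAV-GFP regions as long as the 1193 kb around Onecut2.

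Cebpb (ENSMUSG00000056501.3, chr2:167688915-167690418, plus strand), induced in liver by fasting hormones and in the acute phase, carried 3 narrow AAV-Cre regions and 0 AAV-GFP regions. They were 557 bp (chr2:167651648-167652204), 341 bp (chr2:167668481-167668821) and 1111 bp (chr2:167676060-167677170) wide and covered 2.01 kb. Their folds were 2.28 to 2.65 and their −log10 p 3.44 to 3.98, all below the AAV-Cre medians, and none was among the 34586 strongest of that list. The nearest to Cebpb, which was also the widest, had the lowest −log10 p of the 3 and lay 11745 bp before the start site, and the highest −log10 p was that of the region 36711 bp before it. All 3 lay within Tmem189 (chr2:167642608-167689822, minus strand), a gene whose own 5′ end overlaps the Cebpb body, and overlapped none of its exons. Of the 3, the farther 2 were closer to a start site of Tmem189 or of the overlapping gene Gm20431 than to that of Cebpb, so they cannot be assigned to Cebpb by distance. The nearest AAV-GFP region lay 91129 bp away.

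Gata4 (ENSMUSG00000021944.15, chr14:63198922-63271692, minus strand) was the only member marked in both lists, with 31.8 kb in AAV-Cre and 19.8 kb in AAV-GFP, 24.2% and 15% of its 132-kb window. As many bases were found at 716 protein-coding genes in AAV-Cre (3.26%) and at 192 in AAV-GFP (0.875%). By covered length Gata4 therefore stood near the top of all genes in both lists.

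In AAV-Cre the marked sequence at Gata4 was made of 3 wide regions. They were 9341 bp (chr14:63246555-63255895), 17243 bp (chr14:63256297-63273539) and 4544 bp (chr14:63280495-63285038) wide, and together covered 80.9% of 38.5 kb. The first, nearest to the protein-coding start sites at a distance of 1284 bp, had a fold of 6.89 and a −log10 p of 42. The second was the widest and the strongest, with a fold of 10.3 and a −log10 p of 44.5 (rank 1013, top 1.71%), and 60 regions of the AAV-Cre list were wider. The third, which lay upstream of the gene, had a fold of 7.84 and a −log10 p of 31.9. The remaining AAV-Cre region (chr14:63191259-63191964, 706 bp, −log10 p 4.02) lay 3′ of Gata4 over exons of Neil2, 1577 bp from a start site of that gene, and was not shared.

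In AAV-GFP the same stretch was broken into 19 regions, which covered 55.6% of 35.5 kb. The nearest to a start site (chr14:63246845-63249144, 2300 bp, at 1574 bp) had a fold of 4.39 and a −log10 p of 15.2. The widest (chr14:63261090-63264150) was 3061 bp with a −log10 p of 10.2, and the strongest (chr14:63280655-63281651, 997 bp) had a fold of 5.55 and a −log10 p of 20.2 (rank 627, top 1.81%). Of the 19 regions 15 had a q-value of 0.05 or lower, and the highest q-value among the 19 was 0.342. The region ranked 18874 of the 34586 in AAV-GFP (top 54.6%) had a q-value of 0.0911. Less than that share of the list thus passed 0.05. Every AAV-GFP region lay wholly inside an AAV-Cre region, 5 of them in the first, 12 in the second and 2 in the third, where they covered 76.4, 66.3 and 25.8% of its length. AAV-GFP thus covered 62% of the AAV-Cre bases at Gata4, and 18.9% over the whole lists. Of the 3 wide AAV-Cre regions, the third had the smallest share of its length in AAV-GFP regions, although it held the strongest of these.

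Apart from the region over Neil2, the Gata4 regions lay upstream of the basic protein-coding start sites and inside, or 5′ of, the longer transcripts. Of the 5 start sites of Gata4 over all annotated transcripts, 2 lay in an AAV-Cre region and 1 in an AAV-GFP region, all of them at the far 5′ end of the gene near chr14:63271692. The 3 start sites of basic protein-coding transcripts lay in none. The AAV-Cre region chr14:63256297-63273539 overlapped an exon of Gata4 annotated as untranslated sequence, so the marked 5′ end is not outside all coding transcripts. GC content was 46.7 to 55.2% in AAV-Cre and 41.3 to 57.5% in AAV-GFP, around the list medians of 50 and 50.4%.

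Cebpa, Prox1, Gata6 and Creb3l3 carried no region within 50 kb or over the body in either list. The nearest AAV-Cre region to Cebpa (chr7:35119293-35121928, plus strand) lay 65356 bp away over the start site of the amino acid transporter gene Slc7a10, was 2692 bp wide and had a −log10 p of 37.5. The nearest AAV-GFP region, 66707 bp away, lay over the same start site. At Creb3l3 (chr10:81084324-81098874, minus strand) the nearest regions lay 71046 bp away in AAV-Cre and 72710 bp away in AAV-GFP, both close to Diras1. The marks nearest to these 2 genes were thus at or near start sites of other genes in both lists.

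Prox1 (chr1:190118035-190170714, minus strand), which is overlapped at its 5′ end by the antisense gene Prox1os, had its nearest AAV-Cre region at 116075 bp and its nearest AAV-GFP region at 293032 bp. Gata6 (chr18:11052064-11085635, plus strand) lay just outside the rule in AAV-Cre, with a 423-bp region 51980 bp from its protein-coding start site (−log10 p 3.48), and had none in AAV-GFP within 298558 bp. When the start sites of all transcripts were used, this region came within 50 kb and Gata6 counted as marked in AAV-Cre. The stretch without any AAV-Cre region around Gata6 was 656 kb, and 18.5% of protein-coding genes had 1 as long. The corresponding shares were 36.8% for Cebpa (273 kb), 38.3% for Prox1 (259 kb) and 49.4% for Creb3l3 (166 kb), where the median over genes was 160.2 kb.

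The distance at which regions lay from the start sites of basic protein-coding transcripts was examined next. Within 15 kb the same 4 members were marked in AAV-Cre and the same 1 in AAV-GFP, beside 41.5 and 27.9% of all genes, and 3 were marked only in AAV-Cre beside 14.8% (only in AAV-GFP, 0 members beside 1.22%). Within 5 kb Cebpb dropped out, leaving 3 members in AAV-Cre and 1 in AAV-GFP beside 30.1 and 20.5%. Within 1 kb only Onecut2 was left, by 10 bp of its region (12.5%, 2.24 to 47.1%), and no member in AAV-GFP (upper bound 32.4%), beside 23.9 and 16.6%, and 7.62% of all genes were marked within 1 kb in AAV-Cre alone. Each of these values over all genes lies inside the interval of the members. Start sites of other transcripts were not counted in these windows. Over all annotated transcripts, 2 of the 5 start sites of Gata4 lay in an AAV-Cre region and 1 in an AAV-GFP region.

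**Figure D4:**
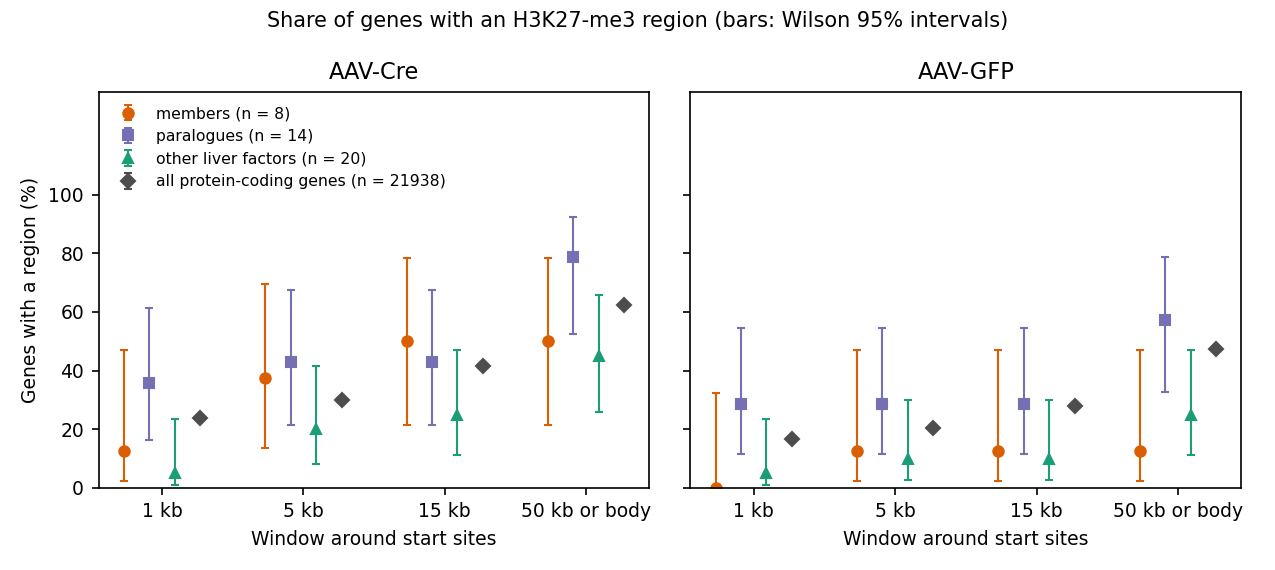
The vertical axis is the percentage of genes with a region and the horizontal axis the window around start sites, for the 8 members, their 14 paralogues, 20 other liver factors and all 21938 protein-coding genes, in AAV-Cre (left) and AAV-GFP (right), with Wilson 95% intervals. Members fall from 50% at 50 kb to 12.5% at 1 kb in AAV-Cre, and paralogues keep 35.7% at 1 kb, beside 23.9% of all genes.

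Paralogues of the members, most of which act in other tissues, were marked at 11 of 14 genes in AAV-Cre and 8 of 14 in AAV-GFP. These were 78.6% (52.4 to 92.4%) and 57.1% (32.6 to 78.6%), beside 62.2 and 47.2% of all genes, which lie inside the intervals. The median covered length was 6.51 and 1.56 kb, beside 1.57 and 0 kb over all genes. Onecut3 held 51.1 kb in AAV-Cre and 16.7 kb in AAV-GFP, and the blood and sympathetic lineage factors Gata2 and Gata3 held 41.7 and 35.3 kb in AAV-Cre and 15.6 and 20 kb in AAV-GFP. Cebpe, Prox2 and Creb3l2 were marked only in AAV-Cre (21.4%, 7.57 to 47.6%, beside 17.1% of all genes). None was marked only in AAV-GFP (beside 2.1%), and Cebpd, Cebpg and Creb3l4 were marked in neither. Within 1 kb of start sites 5 of the 14 were marked in AAV-Cre (35.7%, 16.3 to 61.2%) and 4 in AAV-GFP (28.6%, 11.7 to 54.6%). The shares of all genes, 23.9 and 16.6%, lie inside these intervals. In AAV-Cre Onecut3 thus held more marked sequence than Onecut1, and Gata2 and Gata3 more than Gata4, whereas in AAV-GFP the length at Gata4 lay between those of Gata2 and Gata3.

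Of 20 other factors of the hepatocyte program 9 were marked in AAV-Cre and 5 in AAV-GFP (45 and 25%, beside 62.2 and 47.2% of all genes). Foxa2, Hhex, Hlf and Nfil3 were marked only in AAV-Cre (20%, 8.07 to 41.6%, beside 17.1%). The median covered length was 0 in both lists. Tbx3, a T-box factor of hepatoblasts, held 29.7 and 5.25 kb, the clock-controlled factor Dbp 17.4 and 1.93 kb and Foxa3 8.78 and 3.34 kb, in AAV-Cre and AAV-GFP in turn. Among the 11 genes without a region were Hnf4a, Foxa1, Nr1h4, Nr5a2, Nr1i2, Ppara, Rxra, Nr1h3 and Tef. Within 1 kb of start sites 1 of the 20 was marked, in both lists (5%, 0.888 to 23.6%, beside 23.9 and 16.6% of all genes).

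Marker genes of liver cell types were read as genes with or without a region, which does not show what cells the chromatin came from. Of all protein-coding genes, 23.9 and 16.6% had a region within 1 kb in AAV-Cre and AAV-GFP. Within 50 kb or over the body, 62.2 and 47.2% did. Of 19 hepatocyte genes found by name (1 of 20 was not) none had a region within 1 kb of a start site in either list (upper bound 16.8%). Within 50 kb or over the body 7 (19.1 to 59%) and 4 (8.51 to 43.3%) were marked, led by Cyp2e1, Tat and Apoa2. Alb, Apoa1, Apob, Ttr, Serpina1a, Fga, Fgg, Ahsg, Cps1, G6pc, Tdo2 and Hpd had none. All 6 stellate cell genes (led by Lhx2, Des and Hand2) had a region within 1 kb in both lists (lower bound 61%). Of 6 cholangiocyte genes (led by Krt7, Epcam and Sox9) 5 (43.6 to 97%) and 3 (18.8 to 81.2%) did in AAV-Cre and AAV-GFP. Of 5 endothelial genes (led by Pecam1, Stab2 and Kdr) 2 and 2 did (each 11.8 to 76.9%), and Lyve1 and Oit3 had no region at 50 kb. Of 5 Kupffer cell and leukocyte genes (led by Clec4f, Adgre1 and Cd5l) 1 (3.62 to 62.4%) and 0 (upper bound 43.4%) did, and Vsig4 had none at 50 kb. The shares of all genes within 1 kb lie inside the intervals of these last 2 lists. For the hepatocyte genes the AAV-GFP share of 16.6% also lies inside (upper bound 16.8%), and the AAV-Cre share of 23.9% does not. The targeted gene Kdm6b had 3 AAV-Cre regions covering 2.01 kb, 2 of them within 15 kb of a start site, and 0 in AAV-GFP, which does not test the deletion. What part the non-hepatocyte cells had in the regions at Gata4 and the other members was not tested.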

How the data were processed

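H3K27-me3 ChIP-seq and input libraries of AAV-Cre and AAV-GFP livers were aligned by the authors to mm10 with BWA 0.7.13, filtered with SAMtools 1.2 and Picard 1.126 (AQUAS pipeline, histone setting, pooled input), and regions called with MACS were kept where they overlapped between replicates. The deposited lists give each region's fold enrichment over input (a ratio), its −log10 p and its −log10 q, and the authors' positions, widths and a display score, which was not used. Groups follow the titles. With Python 3.11.15, numpy 2.4.6 and pandas 2.3.3, regions were matched to start sites of basic protein-coding transcripts of GENCODE M21 (GRCm38.p6) at an overlap of 1 bp or more. Matching was tested on simulated regions at 2000 genes, of which 100% equalled a base-by-base search. Shares have Wilson 95% intervals. Named were all 8 members with the nearest, widest and strongest regions, and, of other lists, the 3 genes with the most AAV-Cre bases and those with none, except genes that are not reported here. Members and gene lists were chosen with earlier results of these data known. Alternatives were stricter q-values, equal numbers of top regions, merging, width, windows, start sites and overlap rules. Libraries were not analysed singly, since each list pools 2 ChIP libraries.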

Additional observations from a re-analysis of the deposited data

How the results depend on the processing

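Of the alternative values of the main counts and lengths, 63 stayed within 1.5 times or within their interval and 21 did not. Keeping as many top AAV-Cre regions as AAV-GFP has (34586) left 2 members marked in AAV-Cre, 1 of them only there (Onecut1), beside 56.2 and 12.1% of all genes, and 9 regions. After merging across gaps of up to 1 kb, the members had 9 regions in AAV-Cre and 4 in AAV-GFP. A window of 15 kb gave 10 and 9 regions covering 23.9 and 8.64 kb, and 5 kb gave 3 and 3 covering 5.28 and 3.1 kb. A window of 1 kb left 1 member marked in AAV-Cre and only there, beside 7.62% of all genes, and 0 in AAV-GFP, with 1 and 0 regions covering 0.01 and 0 kb, of which 0% were shared; the share of AAV-GFP regions then has no value. These windows and filters hold fewer bases or regions by construction. A q-value of 0.01 or lower removed Onecut2 and left 0.898 kb at Cebpb, and both had 0 kb among the top regions. Start sites of all transcripts added Gata6. No paired analysis was possible because each group is 1 pooled list with no value per replicate, and leaving out each replicate could not be run for the same reason. Depth is unknown, so an absent region may lie below the calling threshold.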
